A study of Mus musculus with 13 samples.

Results

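The genes described here encode 10 digestive enzymes of the intestinal brush border, the carpet of microvilli on the luminal face of absorptive cells: sucrase-isomaltase (Sis), maltase-glucoamylase (Mgam), lactase (Lct), the 2 meprin subunits (Mep1a and Mep1b), aminopeptidase N (Anpep), dipeptidyl peptidase 4 (Dpp4), glutamyl aminopeptidase (Enpep), membrane-bound aminopeptidase P (Xpnpep2) and intestinal alkaline phosphatase (Alpi). They were found by their gene symbol among 36163 named genes or transcripts on a mouse expression array, and 12 of its 55681 probes measured them. Their probes were set against the same array's probes for colon genes, because most of these enzymes belong to the small intestine and the tissue was labelled colorectal. Of the 10 members, 9 passed the filter on dim probes (signal well above background on at least 2 of 13 arrays), as did 25395 genes in all.

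The 13 samples came from CDX2P-NLS Cre;Apc+/loxP mice (CPC-Apc), in which a Cre recombinase driven by the CDX2 promoter deletes 1 Apc allele and tumors arise spontaneously. Every group carried these alleles, the controls and the normal tissue included. The microRNA mice received miR-200c, miR-302a to miR-302d and both strands of miR-369, at 25 µg of each, in 24 tail vein injections given 3 per week from 8 weeks of age, with super carbonate apatite as the carrier. Control mice received a negative control microRNA in the same carrier. The groups were tumors of microRNA mice (microRNA tumor, 2 arrays), normal tissue of microRNA mice (microRNA normal, 2 arrays), tumors of control mice (control tumor, 7 arrays) and normal tissue of control mice (control normal, 2 arrays). The labels of single control arrays give only the abbreviation NC, and the schedule of the control microRNA was taken to hold for all of them. The source animal of a sample is not labelled, so p-values measure only the spread between these samples, and the number of arrays limits the precision. A number of unstated meaning in the array files was shared by control tumors 1 and 2, by control tumors 4 to 7, by control tumor 3 with control normal 2, and by each microRNA tumor with 1 microRNA normal array. If it stands for the animal, the 7 control tumors came from 3 mice. The age at sampling was not given in the sources used here.

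The processed signal had a 75th percentile of 414.8 to 739.6 on the 9 tumor arrays and of 213.9 to 319.6 on the 4 normal arrays, and 50.7% to 57.0% of probes were well above background. Levels below are log2 signals relative to each array's own 75th percentile, so a level of 0 equals that percentile. The arrays lay on 2 slides, 8 on slide 1 and 5 on slide 2, and both control normal arrays were on slide 2. In values for slide 2 alone every other group has 1 array, so the spread comes from those 2 arrays, and on slide 1 it comes from 6 control tumors. Hoxb13, a homeobox gene of the distal colon, marked arrays that stood apart within their groups. Its level was -0.50 on microRNA normal 2, -1.57 on control tumor 1 and -4.53 (not well above background) on control tumor 5, and on the other 10 arrays it ran between 5.65 and 6.63.

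Enterocytes finish digestion at the cell surface. Sugars are released from starch, sucrose and milk sugar by the disaccharidases, peptides are trimmed by aminopeptidases, a dipeptidyl peptidase and the meprin metalloproteases, and alkaline phosphatase removes phosphate groups from luminal substrates, bacterial lipopolysaccharide among them. Sis, Mgam, Lct, Anpep, Enpep, Xpnpep2, Mep1b and Alpi are known mainly from the small intestine, while Mep1a and Dpp4 are also known from the colon. In mouse and human intestine, the transcription factors CDX2, HNF4A and members of the GATA family are known to act on promoters of such genes.

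The 250 bases upstream of the annotated start of Sis, Anpep, Enpep and Alpi are shown, the first 3 as the called genes with the largest differences between microRNA tumor and normal tissue, and the last for its HNF4-type match. The sequences are those of RefSeq on GRCm38.p6, on each gene's own strand, which is the minus strand for all 4. They lie at chr3:72967864-72968113 (Sis), chr7:79848211-79848460 (Anpep), chr3:129332750-129332999 (Enpep) and chr1:87101607-87101856 (Alpi). Capitals mark the letters of a match to any of 3 short motifs, read on both strands, and matches that overlap or adjoin run together.
Sis: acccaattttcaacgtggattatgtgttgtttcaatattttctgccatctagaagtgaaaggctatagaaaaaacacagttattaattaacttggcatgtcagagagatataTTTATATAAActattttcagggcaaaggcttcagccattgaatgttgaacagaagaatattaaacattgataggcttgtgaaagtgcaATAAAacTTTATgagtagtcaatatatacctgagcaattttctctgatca
Anpep: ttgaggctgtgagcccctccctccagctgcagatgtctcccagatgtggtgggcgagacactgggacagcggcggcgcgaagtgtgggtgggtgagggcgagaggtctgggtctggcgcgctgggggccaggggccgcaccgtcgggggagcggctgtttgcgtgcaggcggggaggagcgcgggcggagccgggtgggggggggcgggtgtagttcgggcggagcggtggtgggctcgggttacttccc
Enpep: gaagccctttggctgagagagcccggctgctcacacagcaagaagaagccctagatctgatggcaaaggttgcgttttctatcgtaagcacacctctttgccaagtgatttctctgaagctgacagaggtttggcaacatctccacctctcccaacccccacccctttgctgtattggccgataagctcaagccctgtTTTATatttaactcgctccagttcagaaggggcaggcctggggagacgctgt
Alpi: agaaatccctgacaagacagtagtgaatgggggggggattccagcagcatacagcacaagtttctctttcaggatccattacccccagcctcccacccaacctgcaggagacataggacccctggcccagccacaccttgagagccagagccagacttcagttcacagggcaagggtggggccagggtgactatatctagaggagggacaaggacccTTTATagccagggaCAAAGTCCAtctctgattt

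The motifs were TTTAT for CDX proteins, AGATAA for GATA factors and CAAAGTCCA for HNF4. The CDX letters can also fall in a TATA box, since the reverse complement ATAAA ends one. Promoter entries were read for 9 of the 10 members. Member entries on chromosome 18 were left out of the search, so Mep1b, which lies there, has no window here. TTTAT stood in 6 of these 9 windows, against 37.3% of all 32851 promoter windows of the same length, and Sis held 4 matches, the pair nearest its start lying 50 to 39 bases upstream. AGATAA stood in 3 of the 9 (Mgam, Lct and Dpp4), against 9.99%, and CAAAGTCCA in that of Alpi, 19 to 11 bases upstream, against 0.384%. The Anpep window was 72.8% G and C and the Sis window 31.6%. Mep1a, Anpep and Xpnpep2 held none of these letters, which says nothing about whether the factors act on them. A match is a string of letters and no evidence of binding.

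**Figure D1:**
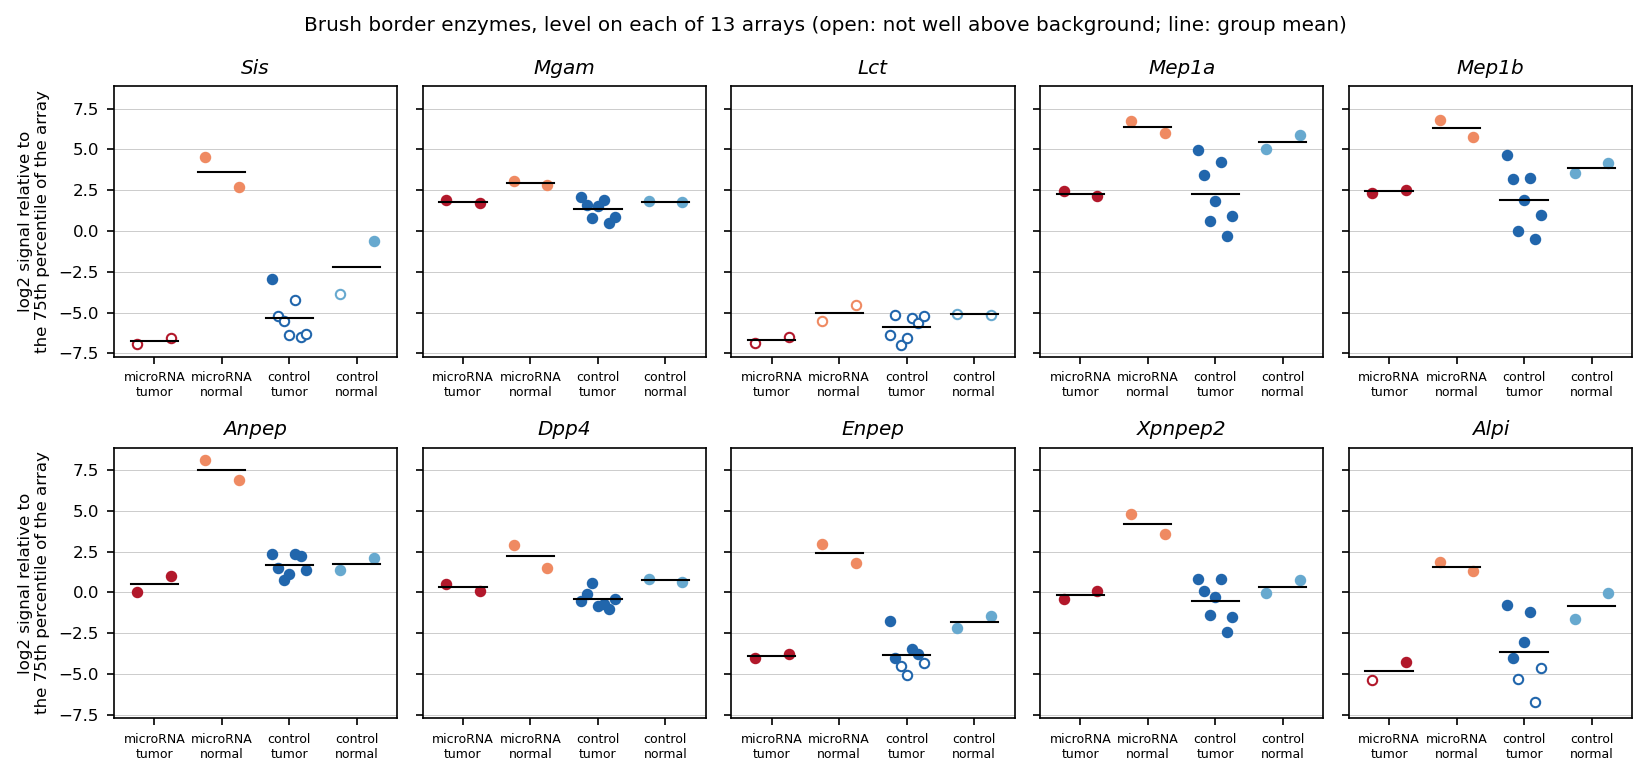
Level of each of the 10 enzymes on every array (y axis, log2 signal relative to the array's 75th percentile) in the 4 groups (x axis), by the brightest probe of each gene. Each point is 1 array, open where the signal was not well above background, and lines are group means. The 2 microRNA normal arrays are above all other arrays for every enzyme but Lct, which has open points throughout.

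Both microRNA normal arrays had the highest levels of the 13 arrays for all 9 enzymes tested. The share of all genes with this ranking is not given here, so it is only a description. Only Anpep passed the test against normal tissue of control mice, at 55.2-fold higher. Sis, Anpep, Enpep and Xpnpep2 were lower in microRNA tumors than in microRNA normal tissue, by 20.4-fold or more. In control mice only Sis passed the test between tumor and normal tissue, a call that 21 of 28 alternative analyses ended. No member passed between the tumors of the 2 kinds of mice. In bulk tissue, fewer cells of a type and less RNA per cell cannot be told apart.

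Between microRNA tumor and normal tissue, 4 of 9 members were called lower (adjusted p under 0.05), against 1.76% of the 25395 genes tested, and none higher, against 1.42%; the median difference of the 9 was -4.35, against -0.14 for all genes. The 4 comprised 1 of 2 disaccharidases, 0 of 2 meprins, 3 of 4 exopeptidases and not the phosphatase. Between control tumor and normal tissue, 1 of 9 was called lower, against 10.9% of all genes, and none higher, against 8.18%, with a median of -1.94 against -0.09. That count is near the background share and is no result about the members.

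In microRNA against control normal tissue, 1 of 9 members was called higher, against 0.284% of all genes, and none lower, against 0.248%, with a median of 2.44 against 0.04. In microRNA against control tumors limma called none, against 0.00394% of all genes in either direction. At an unadjusted p under 0.05, 1 of the 9 would have passed there, Anpep, with a difference of -1.15 (SE 0.49, adjusted p = 1, limma). The share of all genes at that unadjusted threshold is not given here, so the count is no result about the members. Between microRNA and control tumors the medians were 0.04 for the members and 0.00 for all genes. For the difference of tumor effects, 1 of 9 was called lower, against 0.177% of all genes, and none higher, against 0.102%, with a median of -3.43 against -0.04. These comparisons share samples, so they are not separate evidence for the same enzymes.

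Sis, which splits sucrose and the branch points of starch, showed the widest spread of the members over the arrays. Its level was -6.93 and -6.54 in microRNA tumors, neither well above background, against 4.52 and 2.71 in microRNA normal tissue. It ran from -6.50 to -2.96 with a median of -5.51 in the 7 control tumors, of which only control tumor 1 was well above background, and it was -3.84 (not well above background) and -0.61 in control normal tissue. The microRNA normal arrays were therefore apart from all others, whereas control tumors and control normal tissue overlapped.

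Sis was at least 352-fold lower in microRNA tumors than in microRNA normal tissue (adjusted p = 0.00179, limma). The limit sets the microRNA normal mean against the dimmest signal that counted as well above background on the tumor arrays. On the single slides, where each of these groups has 1 array, it was not called (adjusted p = 0.16 on slide 1 and 0.0579 on slide 2). In control mice its difference, tumor minus normal, was -3.09 on the log2 scale (SE 0.98, adjusted p = 0.0479), with means of -5.31 in tumors and -2.23 in normal tissue. That call held when control tumor 1 (adjusted p = 0.0177) or control tumor 5 (0.0456) was left out, and ended when any other single array was, with an adjusted p between 0.0525 and 0.472. The call also ended with the slide as a block (adjusted p = 0.163), on slide 2 alone (difference -3.28, adjusted p = 0.19), with quantile normalization, with median scaling, without scaling, without a filter, in the compared groups alone and with the file number as a block. Without control normal 2 the difference was -1.47, and without control normal 1 it was -4.70.

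Mgam, which acts on starch fragments beside Sis, moved far less. It has 2 probes on the array, printed here because they sit in separate parts of the coding region, at positions 1695 and 5534 of the transcript, each with 1 reading frame free of stop codons. The files place them on mm9 at chr6:40613529-40613588 and, across an intron, at chr6:40716016-40718228; no letters are marked.
Mgam probe at position 1695: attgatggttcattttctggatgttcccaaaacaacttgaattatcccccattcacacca
Mgam probe at position 5534: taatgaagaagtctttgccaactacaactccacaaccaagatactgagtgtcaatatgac

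The brighter probe, at position 5534, had 1.88 and 1.73 in microRNA tumors, against 3.06 and 2.79 in microRNA normal tissue. In control tumors it ran from 0.49 to 2.07 with a median of 1.55, against 1.86 and 1.75 in control normal tissue. The microRNA tumor and normal arrays did not overlap, the control tumor and normal arrays did, and no comparison of Mgam passed the test. Its difference was -1.12 (SE 0.47, adjusted p = 0.191) between microRNA tumor and normal tissue by that probe, and -1.0 (SE 0.49, adjusted p = 0.266 over probes) by the other. Lct, the enzyme of suckling animals, was not well above background on any of the 13 arrays and was not tested.

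The meprins are metalloproteases made of an alpha and a beta subunit. Mep1a, known from the colon as well as the ileum in mice, had 2.43 and 2.13 in microRNA tumors, against 6.73 and 6.01 in microRNA normal tissue. It ran from -0.29 to 4.94 with a median of 1.83 in control tumors, against 5.04 and 5.89 in control normal tissue. All tumors were below all normal samples of their own mice, with control tumors 1 (4.94) and 5 (4.24) closest to them.

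Mep1a averaged 2.28 ± 0.21 in microRNA tumors and 6.37 ± 0.51 in microRNA normal tissue (SD, n = 2 each), a difference of -4.09 (SE 1.45, adjusted p = 0.135). In control mice it averaged 2.25 ± 1.98 in tumors (SD, n = 7) and 5.47 ± 0.60 in normal tissue (SD, n = 2), a difference of -3.22 (SE 1.16, adjusted p = 0.07). Neither passed the test. Without control tumor 1 or control tumor 5 the control difference was -3.67 (adjusted p = 0.0279) or -3.55 (adjusted p = 0.0479), and on slide 2 alone, with control tumor 3 as the only tumor, it was -4.86 (adjusted p = 0.0157). Between microRNA and control normal tissue Mep1a differed by 0.90 (95% confidence interval -2.27 to 4.07).

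Mep1b, the membrane-anchored beta subunit, had 2.35 and 2.51 in microRNA tumors, against 6.83 and 5.78 in microRNA normal tissue. It ran from -0.49 to 4.65 with a median of 1.89 in control tumors, against 3.56 and 4.18 in control normal tissue, and control tumor 1, at 4.65, lay above both control normal arrays. Its differences were -3.87 (SE 1.38, adjusted p = 0.136) between microRNA tumor and normal tissue and -1.94 (SE 1.11, adjusted p = 0.218) between control tumor and normal tissue. It differed by 2.44 (95% confidence interval -0.58 to 5.45) between microRNA and control normal tissue. None of these passed.

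Anpep removes single amino acids from the amino end of peptides and is among the most abundant proteins of the small intestinal brush border. It had 0.04 and 1.01 in microRNA tumors, against 8.13 and 6.92 in microRNA normal tissue. In control mice it ran from 0.77 to 2.37 in tumors with a median of 1.49, against 1.35 and 2.13 in normal tissue. The microRNA normal arrays stood apart from the other 11, and the control tumor and normal arrays overlapped.

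Anpep was 128-fold lower in microRNA tumors than in microRNA normal tissue (log2 difference -7.00, SE 0.61, adjusted p = 0.000273). It was 55.2-fold higher in microRNA normal tissue than in control normal tissue (log2 difference 5.79, SE 0.61, adjusted p = 0.000948), on 2 of 2 arrays. The control tumor difference was -0.06 (SE 0.49, 95% confidence interval -1.13 to 1.00). The difference between the 2 tumor effects, microRNA minus control mice, was itself past the threshold, at -6.94 (SE 0.78, adjusted p = 0.00475). The rise in microRNA normal tissue was called without each single array in turn, with a difference between 5.18 and 6.39, and on slide 2 alone, with 1 microRNA normal array (6.39, adjusted p = 0.0412). The difference of tumor effects was not called on slide 2 alone (-7.12, adjusted p = 0.161), and the fall in microRNA tumors was smaller and not called on slide 1 alone (-5.91, adjusted p = 0.0654).

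Dpp4 clips dipeptides behind a proline or alanine and inactivates the incretin hormones. It had 0.52 and 0.11 in microRNA tumors, against 2.92 and 1.49 in microRNA normal tissue. It ran from -1.02 to 0.56 with a median of -0.51 in control tumors, against 0.83 and 0.66 in control normal tissue. Tumors were below normal samples in both kinds of mice with no overlap, by smaller steps than for Anpep.

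The Dpp4 difference was -1.89 (SE 0.52, adjusted p = 0.0735) between microRNA tumor and normal tissue and -1.18 (SE 0.42, adjusted p = 0.0673) between control tumor and normal tissue. Neither passed the test, although both did without control tumor 3 (adjusted p = 0.0391 and 0.0229), and the control difference did without either microRNA normal array (0.0475). With the slide as a block the first was called (adjusted p = 0.0117), as was the difference between microRNA and control normal tissue, which was 1.97 in that fit (adjusted p = 0.0368) and 1.46 without the block (SE 0.52, adjusted p = 0.654).

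Enpep, which removes acidic amino acids and also degrades angiotensin II, had -4.04 and -3.75 in microRNA tumors, against 3.00 and 1.79 in microRNA normal tissue. It ran from -5.03 to -1.73 with a median of -4.04 in control tumors, of which 4 of 7 were well above background, against -2.20 and -1.43 in control normal tissue. Control tumor 1, at -1.73, was the only control tumor within the range of control normal tissue. Enpep was 78.2-fold lower in microRNA tumors than in microRNA normal tissue (log2 difference -6.29, SE 0.84, adjusted p = 0.00342), with -5.54 on slide 1 alone (adjusted p = 0.25) and -7.04 on slide 2 alone (adjusted p = 0.0472). The control tumor difference was -2.03 (SE 0.67, adjusted p = 0.0536), and the difference between microRNA and control normal tissue 4.21 (SE 0.84, adjusted p = 0.0561). Both passed without control tumor 1 (-2.38, adjusted p = 0.00635, and 4.21, adjusted p = 0.00416), as did the difference of tumor effects (-3.91, adjusted p = 0.0494, against -4.26 and 0.263 with all arrays).

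Xpnpep2 releases an amino acid that precedes a proline. Its brighter probe had -0.39 and 0.10 in microRNA tumors, against 4.79 and 3.61 in microRNA normal tissue. It ran from -2.42 to 0.85 with a median of -0.29 in control tumors, against -0.02 and 0.74 in control normal tissue. As for Anpep, control tumors overlapped control normal tissue.

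Xpnpep2 was 20.4-fold lower in microRNA tumors than in microRNA normal tissue (log2 difference -4.35, SE 0.97, adjusted p = 0.0354). This call ended without any 1 of the 4 microRNA arrays (difference -4.94 to -3.76, adjusted p between 0.0948 and 0.222), without either control normal array (adjusted p = 0.0516) and without control tumor 4 (0.0552). On slide 1 alone it was -3.52 (adjusted p = 0.489) and on slide 2 alone -5.18 (adjusted p = 0.0485). Against control normal tissue, the brighter probe in microRNA normal tissue differed by 3.84 (SE 0.97, adjusted p = 0.199). The second probe was well above background only on the 2 microRNA normal arrays (-1.55 and -2.93) and passed the filter through them alone, so it is given with no test.

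Alpi, the phosphatase, had -5.34 (not well above background) and -4.25 in microRNA tumors, against 1.85 and 1.32 in microRNA normal tissue. It ran from -6.72 to -0.76 with a median of -4.04 in control tumors, 4 of 7 of them well above background, against -1.64 and -0.03 in control normal tissue. Control tumors 1 (-0.76) and 5 (-1.17) lay within the range of control normal tissue. The differences were -6.38 (SE 1.62, adjusted p = 0.0561) between microRNA tumor and normal tissue and -2.83 (SE 1.30, adjusted p = 0.132) between control tumor and normal tissue. The first passed in 12 of 29 alternative analyses, among them those without control tumor 1, 5 or 6 (adjusted p = 0.0297, 0.0452 and 0.0343), with normexp background correction, without scaling, without a filter, in the compared groups alone and with the slide as a block.

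**Figure D2:**
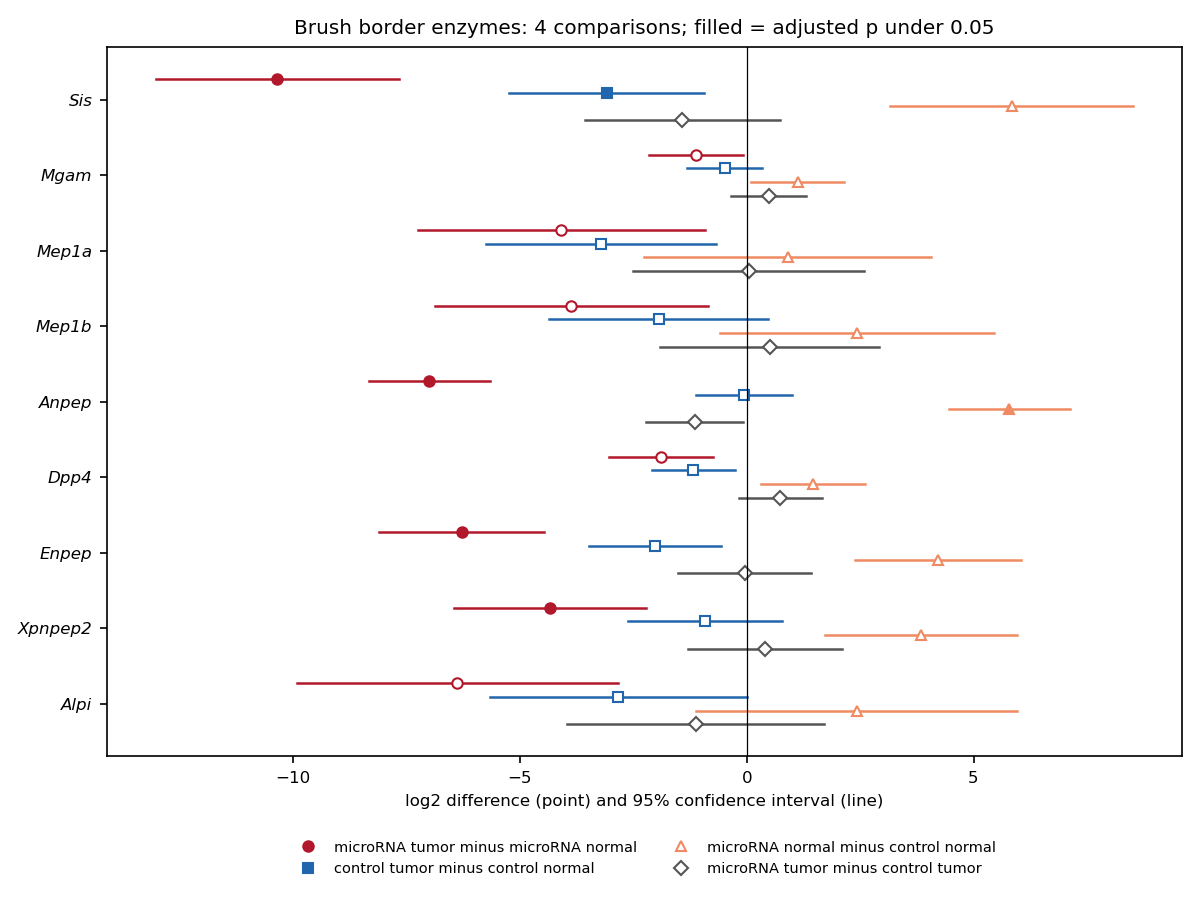
Log2 difference (x axis) with its 95% confidence interval for the 9 enzymes tested (y axis), in 4 comparisons between groups; filled symbols passed at an adjusted p under 0.05. Sis, Anpep, Enpep and Xpnpep2 are filled for microRNA tumor minus microRNA normal, Sis also for control tumor minus control normal, and Anpep also for microRNA normal minus control normal. Sis was not well above background on the microRNA tumor arrays, so its point there (-10.35) rests on dim signals, and the text gives a limit instead.

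The enzymes known mainly from the small intestine were set beside those also known from the colon. The median difference of the first set, microRNA minus control normal, was 3.84 over 7 enzymes tested, with 1 called, against 1.18 over Mep1a and Dpp4, with none called. Between microRNA tumor and normal tissue the medians were -6.29 (4 of 7 called) and -2.99 (0 of 2 called). Between control tumor and normal tissue they were -1.94 (1 of 7 called) and -2.20 (0 of 2 called). The shares of all genes called in these comparisons were, in order, 0.284% (higher), 1.76% (lower) and 10.9% (lower). Single members overlapped between the sets. Mgam differed by 1.12 between the normal tissues, against 1.46 for Dpp4. Between microRNA tumor and normal tissue, Mgam had -1.12 and Mep1b -3.87, against -1.89 for Dpp4 and -4.09 for Mep1a. With 2 genes on one side, the difference between the sets was not tested.

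Other genes of small intestinal absorption were measured beside the enzymes. Of 9 lipid absorption genes, 4 were higher in microRNA than in control normal tissue, against 0.284% of all genes. None was lower, against 0.248%, and the median was 3.01, against 0.04. Of the 4, Apoa1 and Apoa4, apolipoproteins of lipid particles, were well above background on the 2 microRNA normal arrays alone, Apoa1 at 4.20 and 2.38. They passed the filter through those arrays and so had to differ, which leaves 2 calls that the filter did not fix. Fabp6, the bile acid binding protein of the ileum, had 9.54 and 8.50 in microRNA normal tissue, against 1.27 and 2.98 in control normal tissue (difference 6.89, adjusted p = 0.0136). Mttp, which loads lipid onto apolipoprotein B, differed by 4.90 (adjusted p = 0.000346).

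Of 8 brush border transporters tested, 2 were higher in microRNA normal tissue, against 0.284% of all genes. They were Slc7a9, the light subunit of the cystine carrier, with a difference of 4.70 (adjusted p = 0.0351), and Slc6a19. Slc6a19, a carrier of neutral amino acids, also passed the filter only through the microRNA normal arrays. The glucose carrier Slc5a1 differed by 1.31 (adjusted p = 0.413). Of 9 other brush border hydrolases none passed, with a median of 1.83. Ggt1, which splits glutathione, differed by 4.38 (adjusted p = 0.171) and the trehalase Treh by 4.07 (adjusted p = 0.597).

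Structural genes of the microvillus and markers of colonocytes gave smaller differences between the normal tissues. None of 11 brush border structure genes passed, with a median of 0.83. Vil1, which bundles actin in the microvillus, had 7.01 on average in microRNA normal tissue and 5.79 in control normal tissue (adjusted p = 0.906). None of 8 colonocyte genes passed, with a median of 0.06, among them the peptide hormone gene Guca2a (0.52, adjusted p = 0.978) and the sodium-hydrogen exchanger Slc9a3 (0.86, adjusted p = 0.959). None of 8 general epithelial genes passed, with a median of 0.22. None of 10 intestinal transcription factors passed, with a median of 0.38, and Cdx2, named here for the promoter letters above, averaged 5.49 in microRNA normal tissue and 5.08 in control normal tissue.

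**Figure D3:**
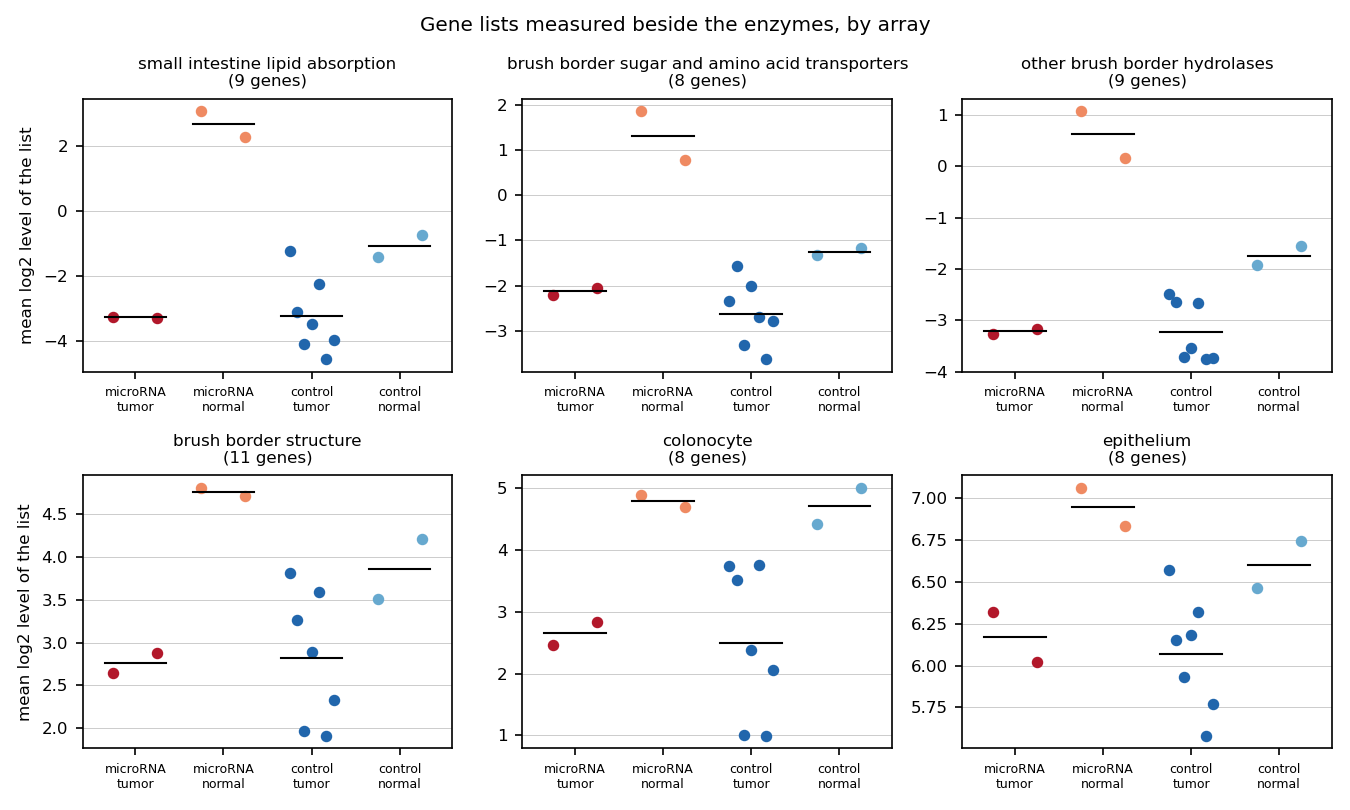
Mean log2 level (y axis) of 6 gene lists on each array (points) by group (x axis), with lines at group means; panels have their own scales. Lipid absorption genes averaged 3.07 and 2.27 on the microRNA normal arrays and between -1.42 and -0.73 on the control normal arrays, while colonocyte genes averaged 4.70 to 4.90 on the microRNA normal arrays and 4.43 to 5.01 on the control normal arrays.

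Some lists of other cell types also differed between the normal tissues. Of 6 squamous epithelium genes 3 were lower in microRNA normal tissue, against 0.248% of all genes, with a median of -3.90: Krt5 (at least 30.6-fold), Krt1 and Flg. Krt1 and Flg passed the filter only through the control normal arrays, which leaves 1 call that the filter did not fix. The list's summed linear signal, in multiples of the 75th percentile, was 1.47 to 2.20 in microRNA normal tissue and 5.19 to 16.8 in control normal tissue. Of 5 Paneth cell genes 1 was called higher (Mmp7, 3.87, adjusted p = 0.0184), against 0.284% of all genes. Lyz1 and Pla2g2a also lay higher, without a call. Ang4 was lower on both microRNA normal arrays (4.35 and 4.92, against 5.54 and 6.41). Itln1 overlapped (7.42 and 6.92, against 5.73 and 7.44). Squamous epithelium is found at the anal end of the large intestine and Paneth cells in the small intestine. The part of the place of sampling in the enzyme differences was not tested, and no label gives that place within the colorectum.

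Hoxb13 was 5.65 on microRNA normal 1 and -0.50 on microRNA normal 2, against 6.35 and 5.90 in control normal tissue. The enzymes were high on both microRNA normal arrays: Anpep had 8.13 on the first and 6.92 on the second. Leaving out the second, Anpep differed between the normal tissues by 6.39 (adjusted p = 0.00456), and leaving out the first, by 5.18 (adjusted p = 0.0191). Each of these differences rests on 1 microRNA normal array, and the part of colon region in them was not tested.

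Among the control tumors, the arrays low in Hoxb13 were high in most enzymes. Control tumors 1 and 5, with low Hoxb13, had the 2 highest levels among the 7 control tumors for 8 of the 9 tested enzymes, such as Sis (-2.96 and -4.25), Mep1a (4.94 and 4.24), Mep1b (4.65 and 3.22), Alpi (-0.76 and -1.17) and Enpep (-1.73 and -3.47). Dpp4 was the exception, at -0.51 and -0.68, below control tumors 2, 3 and 7 (-0.07, 0.56 and -0.42). The share of all genes with this ranking is not given here. The enzymes varied together over the arrays, so the 8 are not separate observations. Cdx2 was 5.57 and 4.21 on these arrays and between -1.23 and 2.92 on the other 5 control tumors. Colonocyte genes were mixed there. Car1, a carbonic anhydrase of the colon, had 8.57 and 7.50, against 1.95 to 4.12 on the other control tumors. Slc26a3, Aqp8 and Guca2a were also highest there. Slc9a3 was lowest there, at 3.51 and 2.27, against 4.09 to 5.92 on the others. Car4 (2.07 and 2.77) and Aqp4 (2.28 and 2.73) were below control tumor 2 (3.74 and 3.71). Control tumors 1 and 5 were picked out by their values, so no test was made, and the part of normal epithelium or of colon region in them was not tested.

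**Figure D4:**
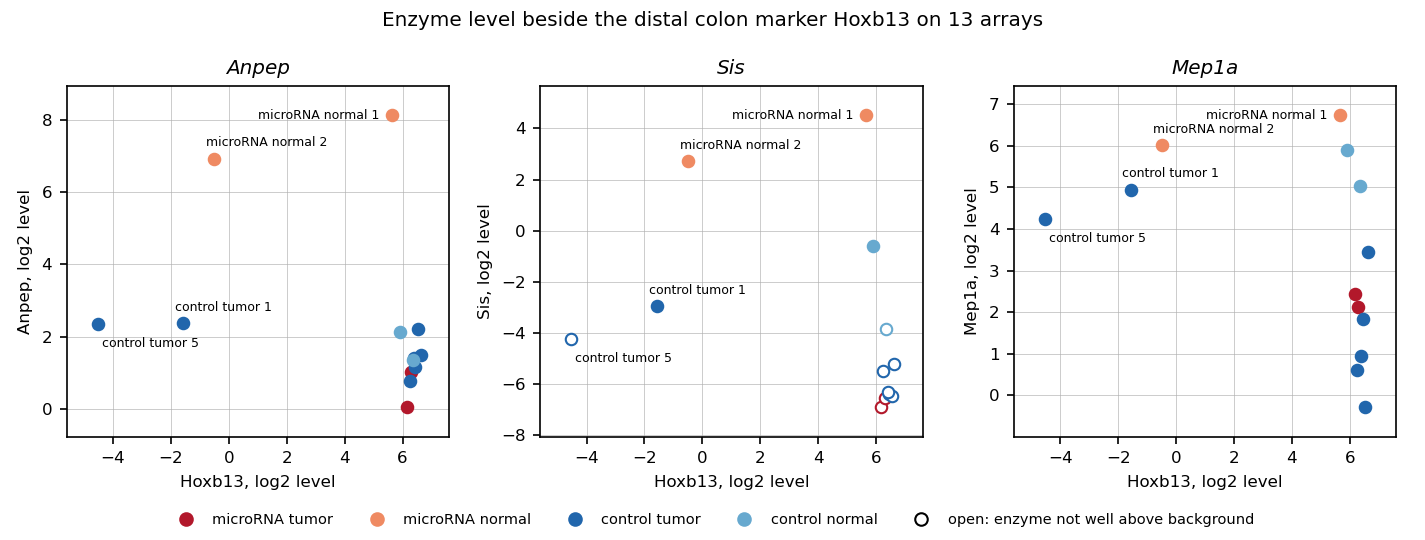
Levels of Anpep, Sis and Mep1a (y axes) against the level of Hoxb13 (x axes) on 13 arrays, all as log2 signal relative to the 75th percentile, coloured by group; open points were not well above background for the enzyme. The microRNA normal arrays have the highest Anpep and Sis at both a high and a low Hoxb13, and control tumors 1 and 5 are the other arrays with low Hoxb13.

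The related lists were counted in the tumor comparisons as well. Between microRNA tumor and normal tissue, against 1.76% of all genes, 6 of 9 lipid absorption genes were lower (median -5.42; Apoa1 and Apoa4 through the filter), 4 of 9 other hydrolases (median -4.48; the peptidase Naaladl1 by -7.89), 3 of 8 transporters (median -2.50; Slc6a19 through the filter), 1 of 11 structure genes (median -1.95) and 0 of 8 colonocyte genes (median -2.17). Between control tumor and normal tissue, against 10.9% of all genes, 3 of 9 lipid absorption genes were lower (median -2.29), 3 of 9 other hydrolases (median -0.64; Naaladl1 by -4.25 and the renal dipeptidase Dpep1 by -3.74), 1 of 8 transporters, 2 of 11 structure genes (median -1.38) and 1 of 8 colonocyte genes (Car4, -1.88; median -2.40); the counts of 1 or 2 lie near the share of all genes. None of these lists had a member called higher. General epithelial genes had medians of -0.74 in microRNA mice and -0.45 in control mice, with 0 of 8 called in each. Smooth muscle genes were lower in control tumors (8 of 8, median -3.47) and none was called in microRNA mice (median -1.27), and adipocyte genes were lower in both (6 of 7 and 4 of 7). The part of these cell types in the enzyme differences was not tested.

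The enzymes varied together over the 13 arrays, which fall into groups and share slides and scaling, so the coefficients are a description. Pearson's r between pairs of the 9 tested enzymes ran from 0.62 (Dpp4 with Alpi) to 0.97 (Sis with Enpep), with 0.96 for the 2 meprin genes and 0.65 for Anpep with Mep1a. Outside the 10, the genes most like Sis were the chemokine gene Ccl25 (r = 0.98), Aldh3b1, the cholesterol carrier Npc1l1, Cyp4f16 and Amn (0.97), each over 13 arrays. Most like Anpep were Dak (0.979), the hormone gene Fgf15, 2010003K15Rik, Apoa1 and Dgat1 (0.966). Most like Mep1a were the carboxylesterase genes Ces2b (0.995) and Ces2c, then Agpat4, Aldh1b1 and Cmbl (0.991). Dpp4 had the weakest likeness, led by a probe known only by its location (0.947), then Nub1, another such probe, Acsl5 and 2810405K02Rik (0.934).

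Likeness genes of Sis and Anpep were highest in microRNA normal tissue, and those of Mep1a were high in both normal tissues. Ccl25 averaged -0.87 ± 0.20 in microRNA tumors and 4.71 ± 1.00 in microRNA normal tissue (SD, n = 2 each), against -0.30 ± 0.61 in control tumors (SD, n = 7) and 1.75 ± 0.35 in control normal tissue (SD, n = 2). Fgf15, Npc1l1, Apoa1 and 2010003K15Rik were well above background on the 2 microRNA normal arrays and on none of the other 11. They passed the filter through those arrays alone. All likeness genes were picked for following the enzymes, so their group pattern was fixed in advance and is no separate evidence. Ces2b averaged 1.95 ± 0.05 in microRNA tumors and 5.95 ± 0.01 in microRNA normal tissue (SD, n = 2 each), against 2.08 ± 1.83 in control tumors (SD, n = 7) and 5.14 ± 0.80 in control normal tissue (SD, n = 2).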

How the data were processed

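Each sample's 35 ng of total RNA was amplified, labelled with Cy3 and hybridized alone, per the labels' protocols. Scanner images were quantified with Agilent Feature Extraction 10.7.3.1, per the file headers, and the intensity deposited for each spot is linear, has background removed within the array and carries no scaling across arrays. A second deposited file lists this intensity for all samples together and served for an alternative without scaling. Probe coordinates are those of the files, on mm9.

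Control spots (3671) and spots with outlier flags were dropped, repeated spots averaged, and the log2 of an array's 75th percentile subtracted from its log2 intensity. Probes well above background on at least 2 of 13 arrays were kept, and the brightest probe on average stood for its gene. Differences between 4 group means were tested in limma 3.58.1, by lmFit and eBayes (R 4.3.3), using every array, with Benjamini-Hochberg adjustment over 25395 genes and a threshold of 0.05; confidence intervals are 95%. Simulated data with known changes were used to check the procedure. Where every array of the dimmer group was not well above background, a fold is given as "at least".

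The members, gene lists and tests were chosen with earlier results of these data known. The text names all members, up to 4 genes of a list by smallest unadjusted p in a comparison, and the 5 genes most like Sis, Anpep, Mep1a and Dpp4; Hoxb13, Cdx2, Car1 and any other gene outside that rule were chosen after their values were seen. Alternatives were normexp background correction (offset 50), quantile normalization, median scaling, no scaling, other filters and probe rules, fits of the compared groups alone, trend and robust eBayes, blocks for slide, file number and replicate number, single slides and leaving out arrays. Single values of some listed genes are not reported here. Promoter sequences are from RefSeq (GRCm38.p6) and were not joined to probe coordinates. Plots were made with matplotlib 3.10.9 under Python 3.11.15.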

Additional observations from a re-analysis of the deposited data

Results flagged for a closer look

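The tumor effect on Anpep differed between the 2 kinds of mice by a test of the difference itself. It was -7.00 in microRNA mice and -0.06 in control mice, a difference of -6.94 on the log2 scale (SE 0.78, adjusted p = 0.00475, limma), and was not called on slide 2 alone (-7.12, adjusted p = 0.161). The gap lay in the normal tissue, where Anpep averaged 7.53 ± 0.85 in microRNA mice and 1.74 ± 0.55 in control mice (SD, n = 2 each), while tumors averaged 0.52 ± 0.69 in microRNA mice (SD, n = 2) and 1.68 ± 0.64 in control mice (SD, n = 7). Among the 7 control tumors, the only group of 4 or more arrays, none of the 9 tested enzymes had an array outside Dixon's limit of 0.568.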

How the results depend on the processing

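The number of members called between control tumor and normal tissue was 1 in the report. It was 4 with normexp and on slide 2 alone, 2 with a filter by group and with trend and robust eBayes, and 0 with median scaling, without scaling, without a filter, in the compared groups alone, with the slide or the file number as a block and without control normal 2 and control tumor 3, the arrays with Xist signal (chosen after seeing the data); leaving out single arrays gave 0 to 3. Between microRNA tumor and normal tissue it was 4, also with quantile normalization, median scaling, other probe rules and on slide 2 alone; it was 5 without scaling, without a filter, with a filter by group and with trend and robust eBayes, 6 with normexp and with the slide or the file number as a block, 7 in the compared groups alone, 3 without both Xist arrays and 0 on slide 1 alone, where both groups had 1 array; leaving out single arrays gave 3 to 5. Between microRNA and control normal tissue it was 1, and 3 with normexp and without scaling and 2 with quantile normalization, a filter by group and the slide as a block; leaving out single arrays gave 1 to 3. For the difference of tumor effects it was 1, and 3 with normexp and 0 on slide 2 alone; leaving out single arrays gave 1 to 2. Between microRNA and control tumors it was 0 in every setting. The cause of these shifts was not tested. Apart from the fits that left out single arrays, counts over all genes ranged from 448 to 12548 between control tumor and normal tissue. Between microRNA tumor and normal tissue these counts ranged from 10 to 3080. Without scaling the median of all genes was 0.96 and 0.76 in these comparisons.

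Same-numbered arrays deviated together only in part (r of 0.42 for microRNA tumor and normal tissue, which also shared a slide and a file number, and -0.19 to 0.33 for other pairs), so the numbers were not taken as pairs. With the replicate number as a block, 0 members were called between control tumor and normal tissue, 7 between microRNA tumor and normal tissue and 0 for the difference of tumor effects, where Anpep had -7.19 (adjusted p = 0.113). The block turned the sign of Mgam (0.01), Mep1b (0.06), Anpep (0.19) and Xpnpep2 (0.09) between control tumor and normal tissue, and of Mgam (-0.02), Mep1a (-1.91), Mep1b (-1.50) and Xpnpep2 (-0.60) between the tumors.

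Other signs turned only for differences that passed no test. Between control tumor and normal tissue, these were Mgam (0.57), Anpep (0.99) and Xpnpep2 (0.14) without scaling, and Anpep with normexp (0.00), without both Xist arrays (0.48) and without control normal 2 (0.33) or control tumor 3 (0.09) or 4 (0.03), within -0.45 to 0.33 over single arrays left out. Between microRNA and control tumors, Mep1a had -0.03 with normexp, -0.13 without scaling, -0.39 on slide 1 alone, -0.24 without both Xist arrays and -0.39 to -0.03 without microRNA tumor 1 (-0.12) or control tumor 3 (-0.24), 4 (-0.03), 6 (-0.39) or 7 (-0.18). Enpep had 0.02 with median scaling, 0.45 on slide 2 alone and turned without microRNA tumor 1 (0.09) or control tumor 1 (0.30) or 5 (0.01), within -0.25 to 0.30 over single arrays left out, and Dpp4 had -0.03 on slide 2 alone. For the difference of tumor effects, Mep1a had 0.56 on slide 2 alone and Dpp4 between -1.43 and 0.00 when single arrays were left out, reaching 0.00 without microRNA normal 1. With 2 arrays in 3 of 4 groups, and signals of Sis, Enpep and Alpi near background on several arrays, precision is low.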
